A study of Mus musculus with 4 samples.

Results

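The complement system was described through 32 of its genes in mouse skin, chosen from a list of components, receptors and regulators out of 39179 genes counted. The tissue was skin of C57BL/6 mice, and gene-level read counts were made from 4 RNA sequencing libraries. The 2 Itch knockout (Itch KO) libraries were from lesional skin of Itch-/- mice, and the 2 wild-type (WT) libraries from skin of WT mice. Inflammation is the labelled phenotype of both genotypes, and no age, treatment or sex is labelled. Nothing in the labels shows that replicates were separate mice, so a p-value covers the spread between libraries, which may be technical. Itch, a Nedd4-type ubiquitin ligase, limits inflammation, and mice without it are known for itching and inflamed skin. The comparison asked which complement genes differed between lesional Itch KO skin and WT skin.

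Complement is a cascade of plasma and tissue proteins that mark microbes, immune complexes and dying cells for removal. The classical pathway starts with C1q, which carries the proteases C1r and C1s, and the lectin pathway starts with collectins and ficolins that carry MASP proteases. Both cleave C4 and C2, while factor B and properdin serve the alternative pathway, and all routes meet at C3. Cleavage of C3 and C5 releases the anaphylatoxins C3a and C5a, which act on receptors of myeloid cells, and C5b gathers C6, C7, C8 and C9 into the membrane attack complex. Host cells are protected by membrane regulators such as Cd55, Cd59 and, in rodents, Crry (Cr1l), and by soluble ones such as factor I. Much of the circulating complement comes from liver, and macrophages and fibroblasts make several components in tissues.

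The promoters of C1qb and C1qc are shown because the C1q genes lie side by side and had nearly the same difference between genotypes. C1qb, C1qc and C1qa lie within 18.7 kb on chromosome 4 (GRCm38, 136880129 to 136898803, all on the minus strand). Each sequence is RefSeq's (GRCm38.p6), 300 bases from 250 before to 50 after the start, and capitals mark the core GAGGAA of sites bound by the myeloid ETS factor PU.1, searched on both strands. The C1qb window is chr4:136886151-136886450 and the C1qc window chr4:136892865-136893164, both printed on the minus strand.
C1qb: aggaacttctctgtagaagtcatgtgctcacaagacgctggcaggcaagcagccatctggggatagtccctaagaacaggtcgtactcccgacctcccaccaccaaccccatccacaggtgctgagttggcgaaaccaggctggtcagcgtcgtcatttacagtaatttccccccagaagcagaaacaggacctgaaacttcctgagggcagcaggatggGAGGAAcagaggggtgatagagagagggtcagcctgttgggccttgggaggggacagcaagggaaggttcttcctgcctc
C1qc: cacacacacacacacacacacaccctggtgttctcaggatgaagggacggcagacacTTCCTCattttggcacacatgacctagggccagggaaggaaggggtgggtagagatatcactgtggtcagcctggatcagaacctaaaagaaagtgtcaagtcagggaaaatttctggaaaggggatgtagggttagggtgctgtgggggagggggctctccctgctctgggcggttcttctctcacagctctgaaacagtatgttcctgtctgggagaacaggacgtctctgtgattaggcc
Counted from the transcript start, the C1qb match begins at position -30 on the gene's strand. The C1qc match begins at position -193 and lies on the opposite strand, so that it reads TTCCTC here. Of the members, 24 had a promoter in the RefSeq table and 8 of them (33.3%) held this core, against 31.3% of all 27025 genes with a promoter. The core was therefore about as frequent in the complement promoters as elsewhere, and a match is a description of the letters, not of binding.

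Gene reads per library numbered 15144957 to 16008351. Levels are given as CPM, counts scaled to library sizes that the TMM method adjusted, and a count of 0 allows up to 0.189 to 0.200 CPM at a floor of 3 counts, which covers counting error only. Itch stood at 11.7 and 11.7 CPM in the Itch KO libraries and at 96.7 and 103 CPM in the WT libraries. Several features of the libraries bear on every value below. Xist stood at 0.947 and 0.892 CPM in Itch KO and at 1055 and 631 CPM in WT, and the Y-linked Ddx3y at 69.1 and 48.0 against 0.0667 and 0.126 CPM, so genotype and sex cannot be told apart. Both Itch KO libraries were from lesional skin, so genotype and lesion state cannot be told apart either. WT replicate 1 stood apart: 8 skeletal muscle markers summed to 1188 and 984 CPM in Itch KO and to 14090 and 2351 CPM in WT replicates 1 and 2, and 5 hair follicle markers to 5350 and 8317 CPM in Itch KO and to 35.7 and 7691 CPM in the same WT libraries. The 10 keratinocyte markers of the skin label summed to 13730 and 15790 CPM in Itch KO and 17060 and 17070 CPM in WT.

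Most complement genes were higher in both Itch KO libraries, and none passed the edgeR quasi-likelihood test after adjustment over all genes. Of the 32 members, 27 passed the filter on low counts and 5 did not. Of the 27, 20 had both Itch KO libraries above both WT libraries, where 31.2% of tested genes did, and 2 had both below, where 30.0% did. With edgeR, 0 of 27 had an adjusted p under 0.05, as for 0.00601% of tested genes higher in Itch KO, and the lowest adjusted p was 0.0548. At an unadjusted p under 0.05, 16 of 27 were higher, against 12.0% of tested genes, and 0 were lower, against 10.9%. DESeq2 called 14 higher, where it called 7.99% of genes, and 0 lower, where it called 6.28%, while limma-voom called 0 members and 0% of genes, with 16 members higher at an unadjusted p under 0.05, against 12.5% of genes, and 0 lower, against 8.98%. The edgeR calls depended on the WT libraries: without WT replicate 1 it called 11 members and 7.69% of genes, and without WT replicate 2 it called 17 members and 30.6% of genes. The median log2 fold change of the 27 was 1.63 and that of all tested genes 0.01. C5ar2, Hc and Cfi reached the filter's minimum of 0.639 CPM in both libraries of Itch KO alone, and Cd46 in those of WT alone. Among the 23 members at the minimum in all libraries, 17 had both Itch KO libraries above both WT libraries, 14 were higher at an unadjusted p under 0.05 and the median was 1.47. Over all 15051 tested genes at the minimum in all libraries, these were 30.3%, 11.0% and -0.007.

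**Figure D1:**
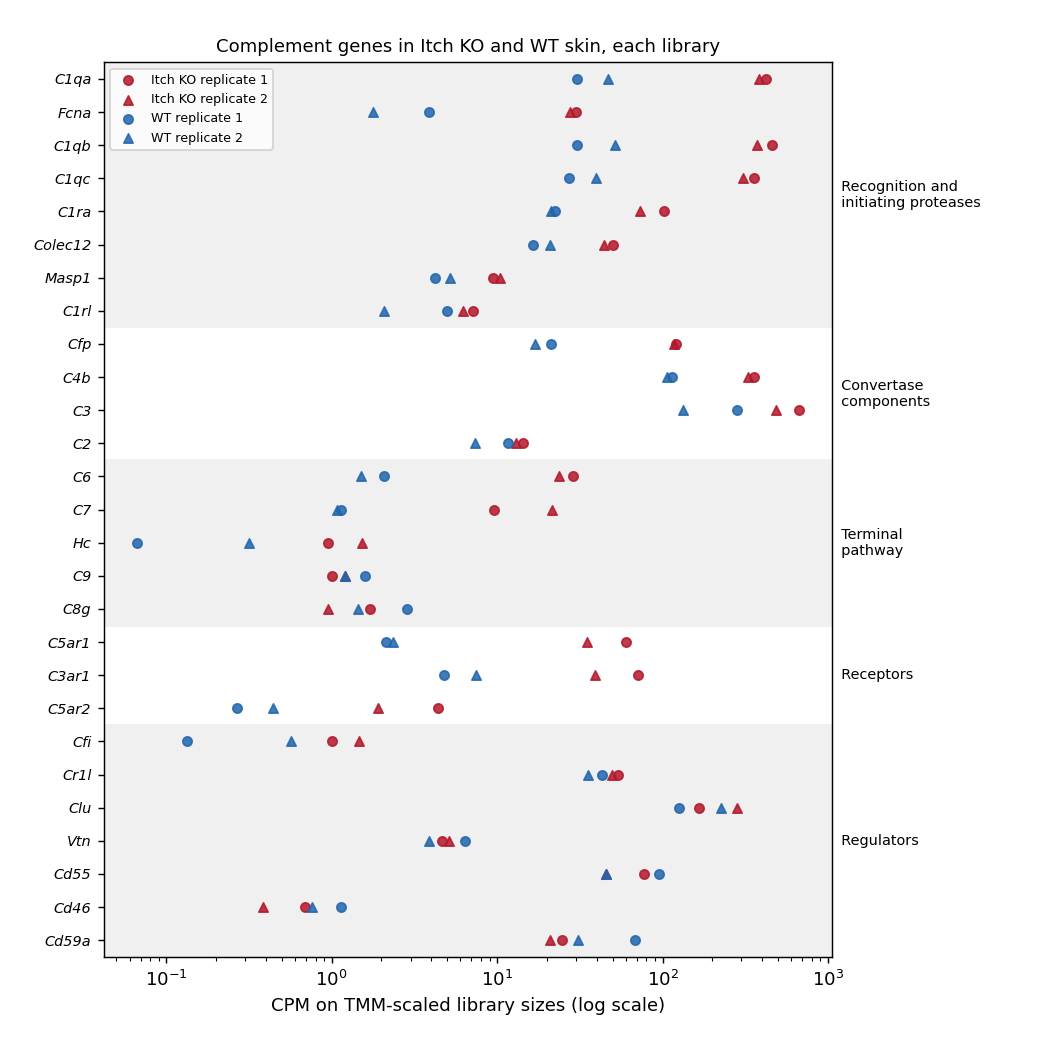
CPM of the 27 tested complement genes in each of the 4 libraries on a log axis, grouped by role, with Itch KO in red and WT in blue and the replicates as circles (replicate 1) and triangles (replicate 2). The red and blue points stand apart for the C1q genes, C6, C7 and the receptors, and overlap for 3 of the 7 regulators (Cd55, Clu and Vtn).

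Per length of exon, the C1q chains had the highest levels in Itch KO among the 27 tested members, and their CPM was about 10-fold higher than in WT. C1qa (ENSMUSG00000036887), one of the 3 chains of the C1q recognition molecule, stood at 421 and 383 CPM in Itch KO and 30.3 and 47.1 CPM in WT. C1qb stood at 459.9 and 374 CPM in Itch KO and 30.5 and 51.8 CPM in WT. C1qc stood at 359 and 308 CPM in Itch KO and 27.2 and 39.5 CPM in WT. The groups lay far apart for all 3 chains, and WT replicate 1 was the lowest library each time. The log2 fold changes were 3.37 (SE 0.28) for C1qa, 3.34 (SE 0.34) for C1qb and 3.32 (SE 0.26) for C1qc, with edgeR adjusted p = 0.0548, 0.0558 and 0.0548, and DESeq2 gave adjusted p = 6.63e-23, 2.34e-17 and 1.59e-24. Together the chains took 39.9% (exact 95% interval 39.4 to 40.3%) and 39.5% (39.0 to 39.9%) of the reads on the 32 members in Itch KO replicates 1 and 2. In WT replicates 1 and 2 their share was 9.50% (9.01 to 9.996%) and 17.1% (16.4 to 17.7%), with intervals that cover counting error only. The chains kept nearly the same proportion in all libraries: C1qa over C1qb was 0.914 and 1.02 in Itch KO and 0.993 and 0.909 in WT, as a ratio of CPM within a library, and C1qc over C1qb was 0.782 and 0.826 in Itch KO and 0.891 and 0.761 in WT.

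Other starting molecules of the cascade were higher too, with smaller differences for the proteases. Fcna, ficolin A, a lectin of mouse macrophages that can start the lectin pathway, stood at 29.8 and 27.4 CPM in Itch KO and 3.87 and 1.77 CPM in WT. Its log2 fold change was 3.34 (SE 0.46, edgeR adjusted p = 0.0727), or 4.01 without WT replicate 1 and 2.89 without WT replicate 2. C1ra, the C1r protease that C1q carries, stood at 102 and 73.4 CPM in Itch KO and 22.5 and 21.2 CPM in WT (log2 fold change 2.00, SE 0.23, edgeR adjusted p = 0.0624). For both genes the groups did not overlap, and the Itch KO libraries were closer together for Fcna than for C1ra. Colec12, a membrane collectin and scavenger receptor, stood at 50.5 and 44.1 CPM in Itch KO and 16.4 and 20.8 CPM in WT (log2 fold change 1.35, SE 0.21, edgeR adjusted p = 0.0806). Masp1, a protease of the lectin pathway, stood at 9.47 and 10.4 CPM in Itch KO and 4.20 and 5.18 CPM in WT (log2 fold change 1.08, SE 0.30, edgeR adjusted p = 0.156). C1rl, a C1r-like protease, stood at 7.20 and 6.18 CPM in Itch KO and 5.0 and 2.08 CPM in WT. WT replicate 1 lay close to the Itch KO libraries there, and the log2 fold change of 0.92 (SE 0.52, edgeR adjusted p = 0.349) became 1.68 without it and 0.42 without WT replicate 2. Masp2, the main activating protease of the lectin pathway, had 6 and 2 reads in Itch KO and 2 and 3 in WT, and Fcnb, ficolin B, had 2 and 0 against 0 and 0, so no difference was detectable at this depth. Masp2 shares 1817 exonic bases with Tardbp on the opposite strand, which makes its count uncertain if strand was not used.

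Among the convertase genes, properdin and C4b were higher with little spread inside each group. Cfp, properdin, which stabilises the alternative pathway convertase and is made by myeloid cells, stood at 121 and 117 CPM in Itch KO and 21.2 and 16.9 CPM in WT. Its log2 fold change was 2.64 (SE 0.19, edgeR adjusted p = 0.0548). Cfp is on the X chromosome, where the sexes of the libraries also differ. C4b (ENSMUSG00000073418, chromosome 17, 34728380 to 34743882), the source of the C4 fragments that bind C2, stood at 356 and 328 CPM in Itch KO and 115 and 107 CPM in WT (log2 fold change 1.62, SE 0.15, edgeR adjusted p = 0.0548). The near-identical neighbour C4a held few reads, and C4b had 99.4% to 99.7% of the reads of the pair in every library, so reads shared by the copies leave both levels uncertain.

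C3, on which all pathways meet, was higher in both Itch KO libraries, but the WT libraries differed widely. It stood at 668 and 484 CPM in Itch KO and 283 and 132 CPM in WT. The 2 groups did not overlap, but WT replicate 1 was 2.13-fold above WT replicate 2. The log2 fold change was 1.47 (SE 0.43, edgeR adjusted p = 0.169), or 2.12 without WT replicate 1 and 1.03 without WT replicate 2, and DESeq2 gave adjusted p = 0.0104. C2, cleaved with C4 to form the classical convertase, stood at 14.4 and 13.0 CPM in Itch KO and 11.6 and 7.38 CPM in WT (log2 fold change 0.53, SE 0.32, edgeR adjusted p = 0.376). Cfb, factor B of the alternative pathway, had 22 and 9 reads in Itch KO and 7 and 1 in WT and did not pass the filter. C2 and Cfb share 1656 and 2246 exonic bases with a readthrough gene that had 0 counts in all libraries, so reads in shared exons may have been set aside as ambiguous and both counts may be too low.

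The 2 terminal pathway genes C6 and C7 were more than 10-fold higher in Itch KO, while C8g and C9 were not. C6, the second unit of the membrane attack complex, stood at 28.6 and 23.8 CPM in Itch KO and 2.07 and 1.51 CPM in WT (log2 fold change 3.87, SE 0.31, edgeR adjusted p = 0.0548). C7, the unit that first inserts into membranes, stood at 9.60 and 21.5 CPM in Itch KO and 1.13 and 1.07 CPM in WT. Itch KO replicate 1 was 0.447 times replicate 2 for C7, and the log2 fold change of 3.81 (SE 0.54, edgeR adjusted p = 0.0747) was 3.12 without Itch KO replicate 2 and 4.27 without Itch KO replicate 1. The 2 genes lie side by side on chromosome 15 within 337 kb (4727175 to 5063740).

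The other terminal genes had few reads. Hc, the mouse gene of C5, had 15 and 24 reads in Itch KO and 1 and 5 in WT (0.947 and 1.53 CPM against 0.0667 and 0.316 CPM). Its log2 fold change of 2.63 (SE 0.77, edgeR adjusted p = 0.167) ranged from 1.94 without WT replicate 1 to 4.06 without WT replicate 2. C8g, the C8 gamma chain, stood at 1.71 and 0.956 CPM in Itch KO and 2.87 and 1.45 CPM in WT (log2 fold change -0.69, SE 0.57, edgeR adjusted p = 0.491). C9, which forms the pore, stood at 1.01 and 1.21 CPM in Itch KO and 1.60 and 1.20 CPM in WT (log2 fold change -0.33, SE 0.42, edgeR adjusted p = 0.656). The groups overlapped for C8g and C9, and C8a and C8b, the other C8 chains, had at most 2 reads in any library.

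The anaphylatoxin receptors had some of the largest differences of the complement genes. C5ar1 (ENSMUSG00000049130), the main receptor of C5a on neutrophils and macrophages, stood at 60.2 and 34.8 CPM in Itch KO and 2.13 and 2.33 CPM in WT, a log2 fold change of 4.40 (SE 0.38, edgeR adjusted p = 0.0548). C3ar1, the C3a receptor, stood at 71.1 and 39.2 CPM in Itch KO and 4.80 and 7.45 CPM in WT (log2 fold change 3.17, SE 0.43, edgeR adjusted p = 0.0727). C5ar2, a second C5a receptor that does not couple to G proteins, stood at 4.42 and 1.91 CPM in Itch KO and 0.267 and 0.442 CPM in WT. Its log2 fold change was 3.13 (SE 0.66, edgeR adjusted p = 0.114), or 2.39 without Itch KO replicate 1 and 3.61 without Itch KO replicate 2. All 3 receptors were higher in Itch KO replicate 1 than in replicate 2, by 1.81-fold for C3ar1, 1.73-fold for C5ar1 and 2.31-fold for C5ar2. C5ar2 and C5ar1 are neighbours on chromosome 7 within 25.0 kb. Per kb of exon, the level of C5ar1 was 18.9 and 25.2 times that of C5ar2 in Itch KO and 11.1 and 7.32 times in WT.

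The other complement receptors did not pass the filter on low counts. Vsig4, the C3b receptor of some tissue macrophages (also on the X chromosome), had 59 and 6 reads in Itch KO and 2 and 1 in WT, so its difference rested mostly on Itch KO replicate 1, which was 9.75-fold above replicate 2. Cr2, which in mice encodes complement receptors of B cells and follicular dendritic cells, had 3 and 3 reads in Itch KO and 1 and 0 in WT, near the detection limit. The 7 markers of those cells summed to 18.5 and 23.5 CPM in Itch KO and 5.53 and 5.43 CPM in WT.

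The 7 regulators summed to 329.7 and 404 CPM in Itch KO and 341 and 341 CPM in WT, and their median log2 fold change was -0.07, against 0.01 over all tested genes. The Itch KO pair was wholly higher for 2 of them (Cr1l and Cfi), where 31.2% of tested genes were. It was wholly lower for 2 (Cd46 and Cd59a), where 30.0% were, and the groups overlapped for 3. None passed edgeR, DESeq2 or limma-voom, which called 0.00601%, 14.3% and 0% of genes, and 0 had an unadjusted p under 0.05 in edgeR, against 22.8% of genes. With 7 genes, these counts are near the shares of all genes and are no result about regulators. Clu held the largest part of the summed CPM, with 127 and 224 CPM in WT replicates 1 and 2. Cd55 and Cd59a were higher in WT replicate 1, so the equal WT sums hide opposite shifts. Cr1l, encoding Crry, the broadly expressed membrane inhibitor of C3 convertases in rodents, stood at 53.7 and 49.5 CPM in Itch KO and 43.3 and 35.3 CPM in WT (log2 fold change 0.39, SE 0.19, edgeR adjusted p = 0.283). Cd55, which speeds the decay of convertases, stood at 77.8 and 45.6 CPM in Itch KO and 95.5 and 45.4 CPM in WT. The groups overlapped for Cd55, and its log2 fold change of -0.19 (SE 0.47, edgeR adjusted p = 0.828) turned to 0.15 without Itch KO replicate 2 and 0.44 without WT replicate 1. Cd59a, which blocks the membrane attack complex, stood at 24.8 and 20.8 CPM in Itch KO and 68.4 and 30.9 CPM in WT. Both Itch KO libraries lay below both WT libraries there (log2 fold change -1.12, SE 0.43, edgeR adjusted p = 0.226), with -0.44 without WT replicate 1 and, with adjusted p = 0.00285 in edgeR, -1.58 without WT replicate 2.

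The soluble regulators and Cd46 differed among themselves. Clu, clusterin, a chaperone that also holds back the membrane attack complex, stood at 167 and 281 CPM in Itch KO and 127 and 224 CPM in WT, so that replicate 2 was the higher library in both groups (log2 fold change 0.35, SE 0.40, edgeR adjusted p = 0.622). It turned to -0.07 without Itch KO replicate 2 and to -0.01 without WT replicate 1. Vtn, vitronectin, which binds the terminal complex, stood at 4.67 and 5.10 CPM in Itch KO and 6.40 and 3.85 CPM in WT (log2 fold change -0.07, SE 0.40, edgeR adjusted p = 0.930), or 0.34 without WT replicate 1 and -0.38 without WT replicate 2. Cfi, factor I, which cleaves C3b and C4b, had 16 and 23 reads in Itch KO and 2 and 9 in WT. Its log2 fold change of 1.78 (SE 0.74, edgeR adjusted p = 0.248) ranged from 1.11 without WT replicate 1 to 3.14 without WT replicate 2. Cd46, which in mice is made mainly in testis, had 11 and 6 reads in Itch KO and 17 and 12 in WT (log2 fold change -0.80, SE 0.54, edgeR adjusted p = 0.414), and shares 1079 exonic bases with a transcript of the opposite strand.

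**Figure D2:**
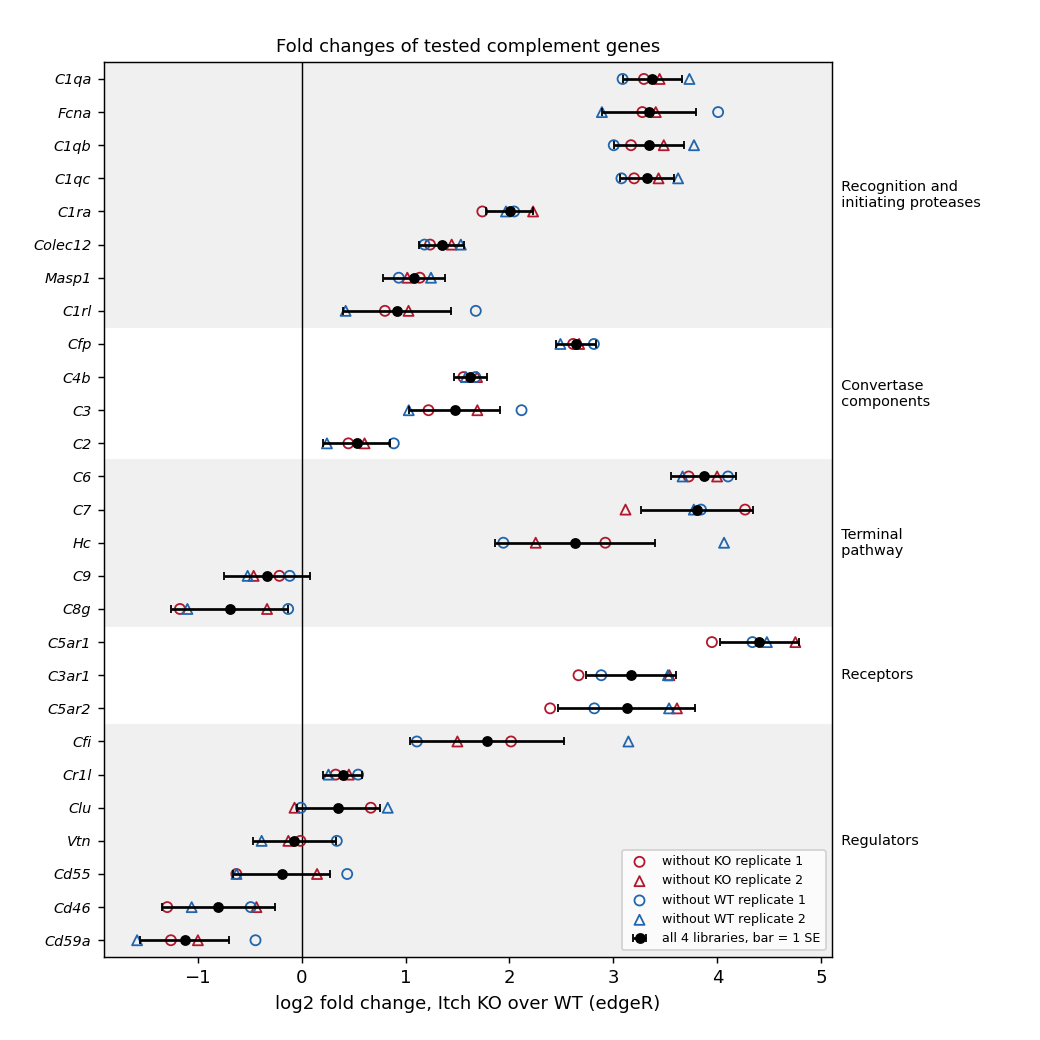
Log2 fold change of Itch KO over WT for the 27 tested complement genes, with black points and bars for the fit to all 4 libraries (1 SE) and open symbols for fits without 1 library (Itch KO replicates in red, WT replicates in blue). Values for recognition molecules and receptors stay above 0 in every fit, while Cd55, Clu and Vtn change sign.

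Scaled by exon length, the order of the 27 tested members differed between the genotypes. In Itch KO the highest levels were C1qa with 386 CPM per kb, C1qb with 383, C1qc with 173 and C3 with 112. In WT they were Clu with 51.1 CPM per kb, C3 with 40.4, C1qb with 37.9 and C1qa with 37.2. The libraries of C1qa and C1qb overlapped in each group, and in WT the ranges of Clu, C3, C1qb and C1qa all overlapped, so their order there is not resolved. Outside the members, Cfd (factor D) stood higher still, with 1315 CPM per kb in Itch KO and 1354 in WT, and Serping1 (C1 inhibitor) stood at 189.5 in Itch KO and 67.7 in WT. From the highest level down, C5ar1 held rank 10 of 27 in Itch KO and 19 in WT, whereas Cd59a held rank 13 in Itch KO and 5 in WT. Cd59a stood at 37.8 and 17.0 CPM per kb in WT replicates 1 and 2. In WT replicate 2 it lay below C1qc with 20.4 and C4b with 18.8, so its WT rank is not resolved. The length is that of all annotated exons together, so a gene with long minor transcripts is placed too low.

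**Figure D3:**
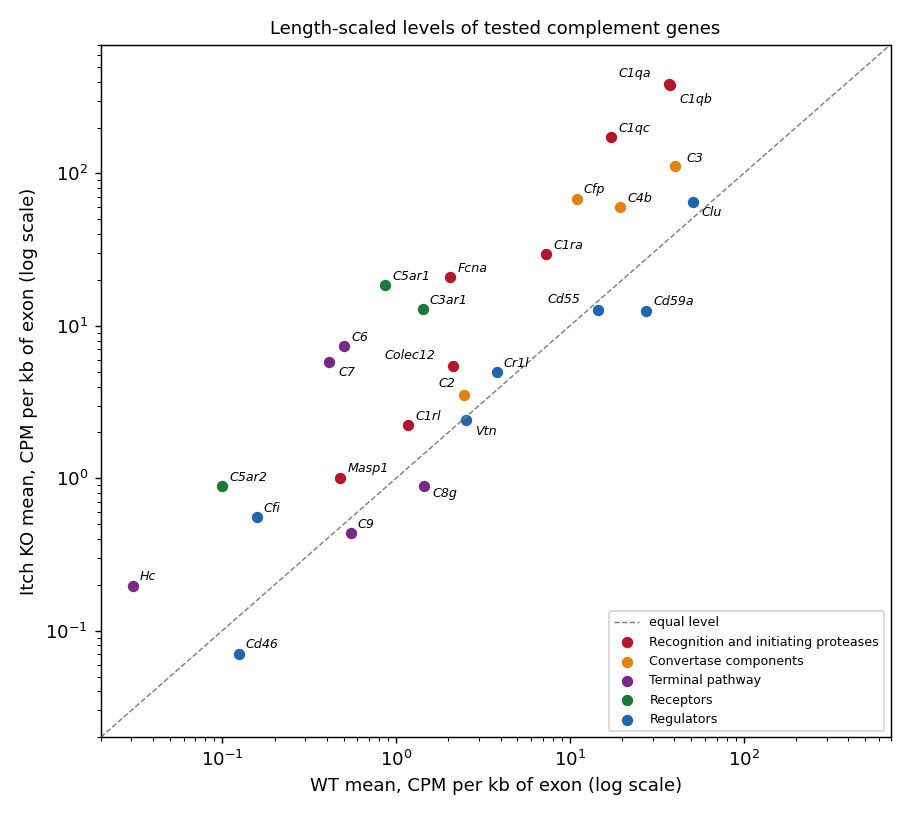
Mean level of each tested complement gene in Itch KO (vertical) against WT (horizontal), in CPM per kb of exon on log axes, coloured by role, with the dashed line at equal levels. C1qa and C1qb stand highest above 300 CPM per kb in Itch KO, and the regulators Cd55, Clu, Cr1l and Vtn lie near the line.

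Several complement genes outside the 32 were higher in Itch KO as well. Of 31 further genes of the pathway, 17 could be tested and 14 had too few reads. In edgeR 0 passed after adjustment, and the unadjusted p was under 0.05 for 7 that were higher, against 12.0% of tested genes, and 0 that were lower, against 10.9%. DESeq2 called 7, each of them higher, where it called 7.99% of genes higher. Their median log2 fold change was 0.65. C1s1, the protease partner of C1r, stood at 149 and 99.0 CPM in Itch KO and 44.1 and 36.2 CPM in WT (log2 fold change 1.62, SE 0.27, edgeR adjusted p = 0.0828). Serping1, the inhibitor of C1r and C1s, stood at 482 and 399 CPM in Itch KO and 161 and 154 CPM in WT (log2 fold change 1.49, SE 0.18, edgeR adjusted p = 0.0638).

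The integrin chains of complement receptors 3 and 4 were higher as well. Itgam stood at 127 and 66.8 CPM in Itch KO and 15.5 and 11.1 CPM in WT, a log2 fold change of 2.86 (SE 0.41, edgeR adjusted p = 0.0750). Their common chain Itgb2 stood at 103 and 66.7 CPM in Itch KO and 15.4 and 16.2 CPM in WT (log2 fold change 2.42, SE 0.27, edgeR adjusted p = 0.0624). Itgax stood at 23.6 and 14.5 CPM in Itch KO and 7.33 and 8.71 CPM in WT (log2 fold change 1.24, SE 0.34, edgeR adjusted p = 0.156). All 3 chains were higher in Itch KO replicate 1 than in replicate 2, as the anaphylatoxin receptors were. Itgam shares 3450 exonic bases with a protein-coding gene of the same strand, so its count may be too low if shared reads were set aside. Ptx3, a pattern recognition protein that binds C1q, stood at 4.42 and 58.1 CPM in Itch KO and 4.20 and 1.64 CPM in WT, so 1 library carried the difference (log2 fold change 3.42, SE 1.38, edgeR adjusted p = 0.244). Cfd, the adipocyte-made factor D that cleaves factor B, stood at 1058 and 1367 CPM in Itch KO and 1576 and 922 CPM in WT (log2 fold change -0.04, SE 0.34, edgeR adjusted p = 0.949). The plasma collectins Mbl1 and Mbl2, which start the lectin pathway, had at most 2 reads in any library.

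Markers of several cell types moved with the complement genes, and in bulk skin more cells of a type and more RNA per cell cannot be told apart. The 10 macrophage markers summed to 2534 and 2071 CPM in Itch KO and 442 and 536 CPM in WT. Of the 10, 9 had both Itch KO libraries above both WT libraries, and none was at 0 in either group. Over all tested genes 31.2% lay above in this way, so counts from the short lists say little. The 9 fibroblast markers summed to 14290 and 12880 CPM in Itch KO and 2262 and 3467 CPM in WT, with 9 of 9 above. The 10 neutrophil markers summed to 2014 and 854 CPM in Itch KO and 10.1 and 32.1 CPM in WT; 7 were tested and 7 were above. The 5 platelet markers summed to 92.1 and 106 CPM in Itch KO and 16.5 and 20.5 CPM in WT, with 3 of 4 tested above and 1 of 5 at 0 in both WT libraries. Pf4 held most of both Itch KO sums (log2 fold change 2.99, SE 0.19), so these sums mainly describe that gene. Ppbp and Itga2b were also above, and Gp1ba, the tested platelet marker whose groups overlapped, had a log2 fold change of -0.225 (SE 0.416). The 5 mast cell markers summed to 394 and 684 CPM in Itch KO and 116 and 210 CPM in WT, with 4 of 5 above. The 6 endothelial markers summed to 411 and 340 CPM in Itch KO and 320 and 146 CPM in WT, with 4 of 6 above. The part of these cell types in the complement values was not tested. The 7 adipocyte markers summed to 2269 and 2048 CPM in Itch KO and 3095 and 1602 CPM in WT, groups that overlapped as those of Cfd did. Of the 7, 0 were above, 3 were below (Adipoq, Plin1 and Lep) and 4 overlapped, where 30.0% of tested genes were below. The 7 hepatocyte markers summed to 14.0 and 25.8 CPM in Itch KO and 5.67 and 4.80 CPM in WT, with 3 of 4 tested above. Apoa1 stood at 1.07 and 13.6 CPM in Itch KO and 0.133 and 0.126 CPM in WT, and held much of the Itch KO replicate 2 sum. Alb, the tested marker whose groups overlapped, stood at 3.79 and 3.76 against 4.67 and 1.14 CPM.

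The C1q chains were also higher relative to the sum of the macrophage markers. Their summed CPM was 0.489 and 0.514 times that of the 10 markers in Itch KO and 0.199 and 0.258 times in WT. Taken over each marker alone, the ratio was higher in both Itch KO libraries than in both WT libraries for 7 of the 10, lower for 1 and overlapping for 2. Against Csf1r, the receptor of the macrophage growth factor, it was 4.39 and 4.91 in Itch KO and 1.21 and 2.52 in WT. Against the Fc receptor Fcgr1, the marker with a lower ratio, it was 34.0 and 37.1 in Itch KO and 38.8 and 37.8 in WT. The groups overlapped for the mannose receptor Mrc1, with 3.37 and 2.47 in Itch KO and 3.35 and 3.61 in WT, and for Cd163. These examples were picked after their values were seen. With 2 libraries a group, the smallest exact two-sided permutation p for a single ratio is 0.333, and no test was made.

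**Figure D4:**
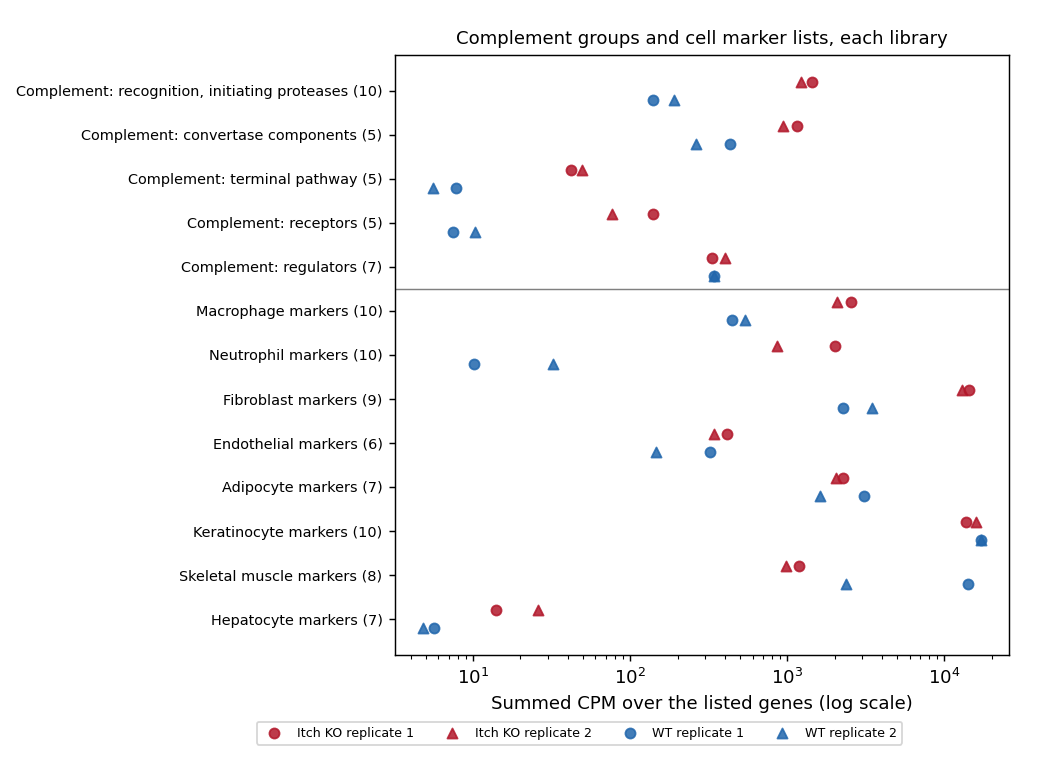
Summed CPM of the complement genes by role (upper 5 rows) and of cell marker lists (lower rows) in each library on a log axis, with Itch KO in red and WT in blue and the number of genes in brackets. Recognition genes, receptors, macrophage, neutrophil and fibroblast markers have both red points to the right of both blue points, while regulator sums lie together and WT replicate 1 stands apart for skeletal muscle.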

How the data were processed

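The authors deposited raw read counts per Ensembl gene, 1 file per library and not normalized, for 2 Itch KO and 2 WT skin libraries, grouped by their labels. The tools named per the submitters' processing notes are HTSeq 0.6.1, TopHat2, SAMtools 0.1.19 and CASAVA 1.8.2, with mm10 (GRCm38). How strand was handled, which annotation was used and which reads were filtered is not given in the sources used here. Reads without a feature (5.68% to 7.45%) and ambiguous reads (4.48% to 4.70%) stayed out. Symbols, coordinates and exon lengths came from GENCODE vM21 (GRCm38). In R 4.3.3, edgeR 4.0.16 kept 16651 genes (filterByExpr, minimum count 10), scaled by TMM and compared Itch KO with WT by the quasi-likelihood F test (robust, legacy, two-sided) with Benjamini-Hochberg adjustment over all genes and a threshold of 0.05. The SE is the log2 fold change over the root of F. DESeq2 1.42.0 and limma 3.58.1 (voom) were alternatives. The procedure was tested on simulated counts whose spread was equal in both groups and smaller than in these data, so it does not show performance here. Replicates of a group differed beyond sampling noise (chi-square per degree of freedom 24.9 in Itch KO and 117 in WT). The members, gene lists and the naming rule (all members, Itch, filtered pathway genes, markers beside a result) were chosen with earlier results of these data known. The values of some genes of the wider pathway list are not reported here.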

Additional observations from a re-analysis of the deposited data

How the results depend on the processing

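Calls after adjustment depended on the test and on the WT libraries. The count of complement genes called was 0 in edgeR with all libraries, and 14 with DESeq2 and 11 with no filter on low counts. Over the fits without 1 library it ranged from 0 (without either Itch KO replicate) to 17 (without WT replicate 2), and was 11 without WT replicate 1. A fit without 1 library assumes that the lone library of its group varies like the other group. Their median log2 fold change of 1.63 was 1.86 with no filter, where all 32 entered, and ranged from 1.56 to 1.94 without 1 library. Over all tested genes, edgeR called 1, DESeq2 2329, limma-voom 0, no filter 488, and a fit without X and Y genes, chosen after seeing the data, 0. Without 1 library this ran from 0 to 5320, and genes at an unadjusted p under 0.05 from 1432 to 7645, against 3802. The cause was not tested. Replicate numbers were not shown to pair the libraries (correlation of same-numbered deviations 0.186). The edgeR fit with a replicate block called 0 genes over all and 0 complement genes. At an unadjusted p under 0.05 it had 18 complement genes, 17 higher and 1 lower. Over all 16651 tested genes it had 2236 higher and 1762 lower. Fold changes on the log2 scale that changed sign without 1 library ranged from -0.627 to 0.439 for Cd55, from -0.068 to 0.829 for Clu and from -0.384 to 0.339 for Vtn. Of 296 values of single genes under other settings, 238 kept direction and side of the threshold, 53 passed it and 5 reversed. Counting sets the limit for Masp2, Fcnb and Cr2.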
